A study of Caenorhabditis elegans with 3 samples.

Results

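The 10 genes described here are lifespan regulators of Caenorhabditis elegans outside the insulin pathway: nuo-6, isp-1, clk-1, aak-2, rsks-1, sir-2.1, daf-12, hsf-1, pha-4 and hlh-30. They were chosen by name and found by WormBase identifier, 10 of the 40427 loci of the authors' deposited table that carry a gene identifier. Each has a row that lists no other gene. They were read against 15628 loci that average 1 FPKM or more over the genotypes. FPKM counts fragments per kilobase of transcript relative to the size of the library, so levels can be compared between genes. The table holds 1 pooled FPKM per genotype. Spread between replicates therefore cannot be given for any value. Whether the authors' p and q measure that spread is not stated, and read depth is unknown.

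Poly(A) RNA was taken from embryos of 3 genotypes. The DCC mutant (strain TY0810, 3 replicates in the labels) carries the sdc-2 allele y93 and was grown on HT115 bacteria that deliver RNAi against sdc-2. SDC-2 loads the dosage compensation complex (DCC) onto both X chromosomes of hermaphrodites, whose transcription the complex turns down. The 8rex deletion (strain TY5827, 5 replicates) lacks 8 rex sites, elements of X from which the complex is loaded. Its alleles are y572 of rex-32, y743 of rex-33, y738 of rex-14, y671 of rex-47, y737 of rex-8, y741 of rex-43, y742 of rex-48 and y740 of rex-35. Wild type was strain N2 (5 replicates). The 8rex deletion and wild type were grown on HT115 bacteria carrying the empty vector pL4440. The DCC mutant replicates were 2 of mixed-stage and 1 of older embryos, whereas the 8rex deletion and wild type had 2 mixed-stage and 3 older replicates each. With equal weights, older embryos would supply 33.3% of the DCC mutant value and 60% of the other values.

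Worm lifespan is set by several routes. A mild loss of mitochondrial electron transport, which nuo-6, isp-1 and clk-1 serve, lengthens life. The energy sensor AMPK (aak-2), S6 kinase downstream of TOR (rsks-1) and a sirtuin deacetylase (sir-2.1) tie lifespan to nutrient state, and the steroid receptor DAF-12 ties it to signals from the germ line. HSF-1, PHA-4 and HLH-30 are transcription factors of the heat-shock response, of pharynx formation and dietary restriction, and of autophagy. These roles in ageing were mostly defined in larvae and adults.

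Markers of the embryo and its stage were read first. The yolk protein genes vit-2, vit-5 and vit-6, made in the gut of adult mothers, were below 1 FPKM in every genotype, and the sperm gene msp-19 was listed at 0 in all of them. The yolk receptor gene of oocytes, rme-2, was the one measured gene of 6 listed for the mothers, with 6.98 FPKM in the DCC mutant, 6.37 in the 8rex deletion and 5.64 in wild type. Of 14 listed early-embryo and maternal markers, 10 were measured and 8 were at least 1.5-fold higher in the DCC mutant than in wild type, with a median log2(FPKM + 1) difference of 1.14 (0.18 in the 8rex deletion); 17.4% of all loci with 1 protein-coding gene were that much higher. None of these 10 was at 0. Their summed level was 2506 FPKM in the DCC mutant, 1881 in the 8rex deletion and 2098 in wild type, of which cav-1 gave most. Of 14 listed late-embryo markers 9 were measured, in the DCC mutant 4 above and 5 below wild type, with 1 at least 1.5-fold higher (myo-2), 1 lower (rol-6) and a median of -0.02 (0.10 in the 8rex deletion). Only myo-2 of the 9 lies on X. The level of rol-6 was very low, with 0.487 FPKM in the DCC mutant, 2.11 in the 8rex deletion and 1.35 in wild type. The 9 markers summed to 5220 FPKM in the DCC mutant, 6680 in the 8rex deletion and 6693 in wild type. Most of that sum was the collagen gene sqt-3, with 3347 FPKM in the DCC mutant, 4604 in the 8rex deletion and 4637 in wild type. Of 5 listed markers of embryo tissues 3 were measured, and none of these was 1.5-fold higher or lower in either mutant. The locus shared by elt-2 and elt-4, not counted, stood apart in the 8rex deletion. It had 40.8 FPKM in the DCC mutant, 202 in the 8rex deletion and 35.3 in wild type (8rex deletion p = 5e-05 and q = 0.0632 in the authors' deposited table). The part of embryo stage in the DCC mutant differences below was not tested. The targeted gene sdc-2 had 10.98 FPKM in the DCC mutant, 16.01 in the 8rex deletion and 18.04 in wild type (DCC mutant p = 0.505 in the authors' deposited table). In RNA of whole embryos, fewer cells of a type and less RNA per cell cannot be told apart.

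All 10 genes were detected in every genotype. In wild type the order from high to low was isp-1, nuo-6, pha-4, hlh-30, rsks-1, aak-2, sir-2.1, hsf-1, clk-1 and daf-12. Both ends of this order were the same in all genotypes. The level of isp-1 was 11.9 times that of daf-12 in the DCC mutant, 16.7 times in the 8rex deletion and 22.8 times in wild type. Against the 15628 loci, isp-1 exceeded 96.6% in the DCC mutant, 96.3% in the 8rex deletion and 96.5% in wild type. The level of daf-12 exceeded 61.4% of loci in the DCC mutant, 51.8% in the 8rex deletion and 47.0% in wild type. The order differed between genotypes only among neighbours: hlh-30 lay above pha-4 and hsf-1 above sir-2.1 in both mutants, and aak-2 above rsks-1 in the DCC mutant. Without replicate values, which neighbours differ beyond their spread could not be judged.

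**Figure D1:**
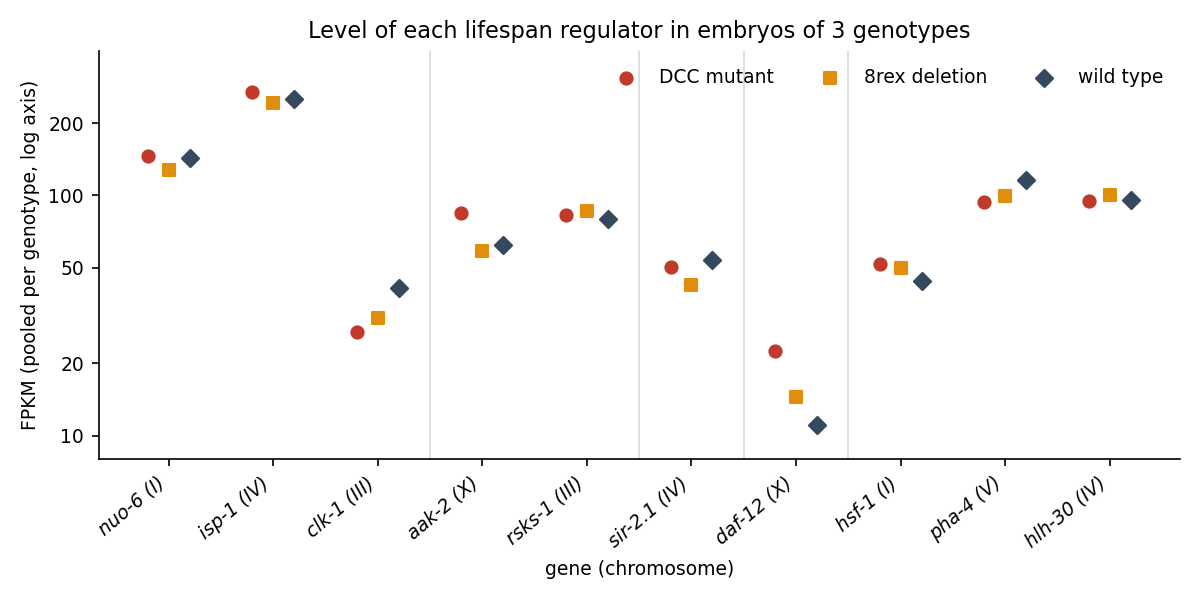
Level of each gene as FPKM on a log axis in the DCC mutant (circles), the 8rex deletion (squares) and wild type (diamonds), with its chromosome in brackets; each point is the authors' pooled value, without error bars, and grey lines separate the groups by role. The symbols of isp-1, nuo-6, rsks-1 and hlh-30 lie close together, while daf-12 has 22.6 FPKM in the DCC mutant against 11.1 in wild type, and clk-1 has 27.0 FPKM in the DCC mutant against 41.1 in wild type.

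Loss of the complex was examined by setting the DCC mutant against wild type. Counts of genes at least 1.5-fold higher or lower are on the log2(FPKM + 1) scale throughout, which understates low genes, whereas folds given for single genes are ratios of FPKM. Of the 10 genes, daf-12 was at least 1.5-fold higher, clk-1 at least 1.5-fold lower, and 8 lay between. Among all 15628 loci 17.6% were higher and 18.4% lower by that margin, so the members' counts were near the background. None of the 10 had an authors' p under 0.05; of the 9509 loci that the authors tested, 1.39% did and were higher, and 0.684% did and were lower. At a q under 0.05 the share was 0% in the authors' deposited table, which does not name its test. The median log2(FPKM + 1) difference was 0.04 over the 10 genes and 0.00 over all loci.

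Loss of rex sites was examined by setting the 8rex deletion against wild type. None of the 10 genes reached 1.5-fold, where 13.5% of all loci were higher and 10.8% lower. Of loci with 1 protein-coding gene averaging 10 FPKM or more, 2.48% were higher and 2.41% lower on the autosomes. On X, 2.06% of such loci were higher and 3.08% lower, so none of 10 genes is near these smaller shares. Differences of the 10 genes lay between -0.40 for clk-1 and 0.36 for daf-12, with a median of -0.07 (0.00 over all loci). In the authors' deposited table the p of the 10 genes lay between 0.399 and 0.924. Of the 9378 loci tested there, 0.288% were under 0.05 and higher, 0.171% under 0.05 and lower, and 0% had an authors' q under 0.05. Both comparisons use the same wild-type values, so a wild-type value that is low or high moves a gene the same way in each.

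**Figure D2:**
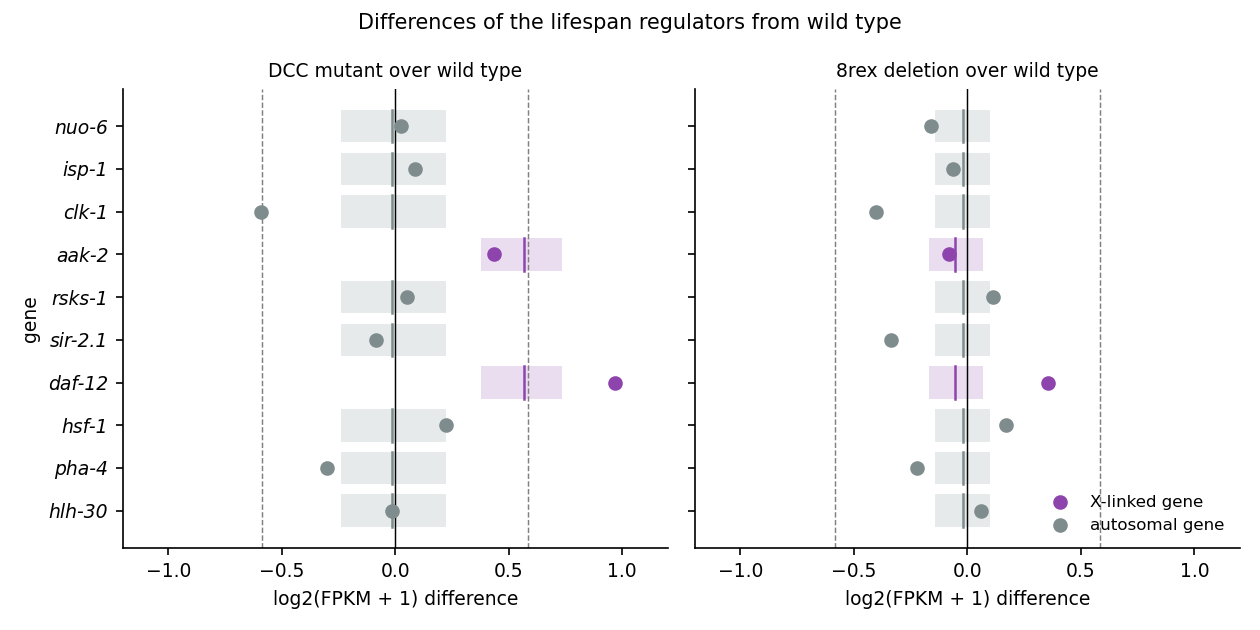
Difference of each gene from wild type as log2(FPKM + 1), for the DCC mutant (left) and the 8rex deletion (right); points are genes, shaded bars the interquartile range and vertical ticks the median of X-linked (purple) or autosomal (grey) loci with 1 protein-coding gene averaging 10 FPKM or more, and dashed lines mark 1.5-fold. In the DCC mutant daf-12 lies past the line at 0.97 and clk-1 just past it at -0.59; in the 8rex deletion no gene reaches it.

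Of the mitochondrial genes, nuo-6 and isp-1 were nearly level across genotypes, and clk-1 had its highest value in wild type. The complex I subunit gene nuo-6 (WBGene00012166, I, 7068116 to 7069186, minus strand) had 146 FPKM in the DCC mutant, 128 in the 8rex deletion and 143 in wild type. The gene of the Rieske iron-sulphur protein of complex III, isp-1 (WBGene00002162, IV, 8134016 to 8136055, minus strand), had 268 FPKM in the DCC mutant, 242 in the 8rex deletion and 252 in wild type. The highest genotype exceeded the lowest by 1.14-fold for nuo-6 and 1.11-fold for isp-1. In the authors' deposited table nuo-6 had p = 0.956 in the DCC mutant and 0.707 in the 8rex deletion, and isp-1 had p = 0.858 in the DCC mutant and 0.881 in the 8rex deletion.

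The hydroxylase gene of ubiquinone synthesis, clk-1 (WBGene00000536, III, 5277894 to 5279344, plus strand), had 27.0 FPKM in the DCC mutant, 30.9 in the 8rex deletion and 41.1 in wild type. Both mutants were thus below wild type, the DCC mutant by 1.52-fold (log2 difference -0.59) and the 8rex deletion by 1.33-fold (-0.40). Neither difference passed the authors' test (p = 0.287 in the DCC mutant and 0.399 in the 8rex deletion in the authors' deposited table). The DCC mutant call lies at the margin: with differences centred on the autosomal median or with a pseudocount of 5 FPKM, 0 of the 10 genes were 1.5-fold lower.

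The place of clk-1 was read among 5445 autosomal loci that hold 1 protein-coding gene and average 10 FPKM or more, called well-expressed autosomal loci below; this level, which all 10 genes exceed, was set after the data were seen. Of these, 8.63% were at least 1.5-fold higher in the DCC mutant, 7.36% were lower, and 7.3% had a lower difference than clk-1. In the 8rex deletion 2.48% were at least 1.5-fold higher and 2.41% lower, and 5.3% had a lower difference than clk-1. Among all 12689 autosomal loci averaging 1 FPKM or more, low, non-coding and multi-gene loci included, the rank was less extreme: 19.2% lay below clk-1 in the DCC mutant and 14.2% in the 8rex deletion. Over 5 measured loci on each side of clk-1 the median difference was 0.04 in the DCC mutant, with 6 of 10 above 0, and -0.08 in the 8rex deletion, with 4 of 10 above 0. The nearest, toc-1, had 53.3 FPKM in the DCC mutant, 56.0 in the 8rex deletion and 63.3 in wild type. The tRNA-modifying enzyme gene gro-1 had 11.2 FPKM in the DCC mutant, 9.97 in the 8rex deletion and 10.7 in wild type.

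Counts for the pathway lists are set against all loci with 1 protein-coding gene. There the DCC mutant had 17.4% higher by 1.5-fold or more and 13.9% lower, and the 8rex deletion 7.93% higher and 6.49% lower. Among the well-expressed autosomal loci these shares were smaller, as given above. The first list is ubiquinone synthesis besides clk-1, which is all autosomal. Of 7 listed, 5 could be measured at a locus with no other coding gene; 4 of these were below wild type in the DCC mutant and 5 in the 8rex deletion, with medians of -0.04 and -0.17. Among autosomal loci with 1 protein-coding gene, 45.1% lay above wild type in the DCC mutant and 48.3% in the 8rex deletion. The first of these medians is 0.00 when centred on the autosomal median. In both mutants 1 gene was at least 1.5-fold lower and none higher, where 1 gene of 5 cannot be set apart from those shares: the prenyltransferase gene coq-2, with 1.03 FPKM in the DCC mutant, 5.23 in the 8rex deletion and 8.67 in wild type. Its p in the authors' deposited table was 0.2896 in the DCC mutant and 0.689 in the 8rex deletion. The polyprenyl synthase gene coq-1 had 25.6 FPKM in the DCC mutant, 30.9 in the 8rex deletion and 32.1 in wild type. The methyltransferase gene coq-5 had 25.2 FPKM in the DCC mutant, 22.7 in the 8rex deletion and 25.6 in wild type.

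Genes of complex I that could be measured alone lay mostly above wild type in the DCC mutant, as did both X-linked genes of complex III. Among loci with 1 protein-coding gene, 87.9% on X and 45.1% on the autosomes lay above wild type there. Of 13 listed complex I genes 7 were measured at a locus with no other coding gene, 6 of them above wild type; 2 were at least 1.5-fold higher and none lower, with a median of 0.31. The other 6, nuo-1 to nuo-5 and nduf-7, share loci with other coding genes, and those loci were nearly level, between -0.09 for nuo-2 and 0.06 for nuo-1. With them the complex I median was 0.06. Of 7 listed genes of complex III and cytochrome c 6 were measured, 4 of them above wild type. On the autosomes cyc-1 (0.12) and ucr-2.3 (1.17) lay above wild type, and ucr-1 (-0.02) and ucr-11 (-0.003) below. Of the 6, 3 were at least 1.5-fold higher and none was lower, with a median of 0.38. The median was 0.12 with the cytochrome c gene cyc-2.1, whose locus also holds the ribosomal protein gene rpl-20. Over all loci with 1 protein-coding gene the median was 0.03. No gene of these lists reached 1.5-fold in the 8rex deletion, and the medians were 0.03 for complex I and -0.02 for complex III.

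Of these 5 higher genes, gas-1, ucr-2.1 and ucr-2.2 lie on X. The complex I core gene gas-1 had 203 FPKM in the DCC mutant, 117 in the 8rex deletion and 114 in wild type. The complex III core gene ucr-2.2 had 117 FPKM in the DCC mutant, 69.0 in the 8rex deletion and 71.0 in wild type. The autosomal pair was nduf-2.2 of complex I and ucr-2.3 of complex III. In the first, nduf-2.2, the values were 21.3 FPKM in the DCC mutant, 9.48 in the 8rex deletion and 8.90 in wild type. The level of ucr-2.3 was 37.4 FPKM in the DCC mutant, 19.9 in the 8rex deletion and 16.03 in wild type. None of the 5 had an authors' p under 0.05 in the DCC mutant. From the authors' deposited table, that p was 0.241 for gas-1, 0.0672 for ucr-2.1, 0.128 for ucr-2.2, 0.0788 for nduf-2.2 and 0.531 for ucr-2.3.

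The mitochondrial unfolded protein response acts when electron transport or protein import fails. Of 14 listed genes 7 were measured, none of them 1.5-fold higher or lower on the log2(FPKM + 1) scale in either mutant, and the medians were 0.03 in the DCC mutant and -0.05 in the 8rex deletion. The gene of its transcription factor, atfs-1, had 36.3 FPKM in the DCC mutant, 52.6 in the 8rex deletion and 54.8 in wild type (DCC mutant p = 0.213 in the authors' deposited table). It lay at the margin in the DCC mutant: its log2(FPKM + 1) difference was -0.58, its FPKM ratio 1.51-fold lower, and 1 gene of the list was counted as lower with a pseudocount of 0.1 FPKM, with none, or with FPKM rescaled to equal sums. The mitochondrial HSP70 gene hsp-6 had 73.8 FPKM in the DCC mutant, 103 in the 8rex deletion and 103 in wild type. Both had their lowest value in the DCC mutant. The X-linked regulator gene dve-1 had its highest value there, with 103 FPKM in the DCC mutant, 77.4 in the 8rex deletion and 80.5 in wild type.

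The kinase gene aak-2 had its highest value in the DCC mutant, and rsks-1 was nearly level. The catalytic AMPK subunit gene aak-2 (WBGene00020142, X, 16796087 to 16803398, plus strand) had 84.5 FPKM in the DCC mutant, 58.7 in the 8rex deletion and 62.2 in wild type. It was 1.36-fold higher in the DCC mutant (log2 difference 0.44) and 1.06-fold lower in the 8rex deletion (-0.08), neither past the authors' test (p = 0.449 in the DCC mutant and 0.867 in the 8rex deletion in the authors' deposited table). The X chromosome around it was shifted as well. Over 1070 well-expressed X-linked loci, chosen like the autosomal ones, the median difference was 0.57 in the DCC mutant, and 30.5% of them lay below aak-2. Their median in the 8rex deletion was -0.06, and 43.5% lay below aak-2. Among all 2939 X-linked loci averaging 1 FPKM or more, 48.0% lay below aak-2 in the DCC mutant and 40.6% in the 8rex deletion.

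The second catalytic AMPK gene, aak-1 on chromosome III, was far less abundant than aak-2. It had 8.28 FPKM in the DCC mutant, 7.63 in the 8rex deletion and 7.71 in wild type. Per transcript length, the level of aak-2 was 10.2 times that of aak-1 in the DCC mutant, 7.69 times in the 8rex deletion and 8.07 times in wild type. Of 14 listed AMPK subunits and partners 13 were measured; in the DCC mutant 1 was at least 1.5-fold higher and 1 lower, and none was in the 8rex deletion, and the medians were 0.07 and -0.02. The higher one was the X-linked beta subunit gene aakb-1, with 77.4 FPKM in the DCC mutant, 49.6 in the 8rex deletion and 50.8 in wild type (DCC mutant p = 0.1804 in the authors' deposited table). With FPKM rescaled to equal sums, or with a pseudocount of 5 FPKM, it no longer reached 1.5-fold. The autosomal beta subunit gene aakb-2 had 35.0 FPKM in the DCC mutant, 30.9 in the 8rex deletion and 32.4 in wild type. The lower one was the gamma subunit gene aakg-1, with 1.03 FPKM in the DCC mutant, 8.20 in the 8rex deletion and 7.39 in wild type (DCC mutant p = 0.301 in the authors' deposited table).

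The S6 kinase gene rsks-1 (WBGene00012929, III, 11245120 to 11252281, plus strand) had 82.7 FPKM in the DCC mutant, 86.3 in the 8rex deletion and 79.7 in wild type. Both mutants were within 1.08-fold of wild type (p = 0.902 in the DCC mutant and 0.758 in the 8rex deletion in the authors' deposited table). Of 21 listed genes of the TOR and S6 kinase pathway 12 were measured at a locus with no other coding gene. In the DCC mutant 2 were at least 1.5-fold higher and 2 lower, near the 17.4% and 13.9% of all such loci, with a median of 0.27 (0.04 with the loci shared with other coding genes). In the 8rex deletion none was higher and 1 lower, with a median of -0.08. The X-linked gene pdk-1, whose kinase acts on AKT and S6 kinase, had 45.9 FPKM in the DCC mutant, 21.3 in the 8rex deletion and 18.5 in wild type (DCC mutant p = 0.0202 in the authors' deposited table). The X-linked cap-binding factor gene ife-2, whose loss lengthens life, had 169 FPKM in the DCC mutant, 85.4 in the 8rex deletion and 106 in wild type (DCC mutant p = 0.0998 in the authors' deposited table). The elongation factor kinase gene efk-1, by contrast, had 55.4 FPKM in the DCC mutant, 75.5 in the 8rex deletion and 91.0 in wild type.

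The other lower value of this pathway belongs to the locus of sinh-1, a gene of TOR complex 2, and the non-coding gene Y57A10A.44. It had 5.54 FPKM in the DCC mutant, 8.52 in the 8rex deletion and 118 in wild type, with p = 5e-05 and q = 0.0632 for each mutant in the authors' deposited table. Here the wild-type value stands apart from both mutants, and how much of it belongs to sinh-1 is not known. The TOR kinase gene let-363 shares its locus with vep-1 and mrpl-47 and was not counted.

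The sirtuin gene sir-2.1 had its lowest value in the 8rex deletion. It encodes an NAD-dependent deacetylase (WBGene00004800, IV, 10363318 to 10366229, minus strand) and had 50.5 FPKM in the DCC mutant, 42.2 in the 8rex deletion and 53.7 in wild type. The DCC mutant was 1.06-fold and the 8rex deletion 1.27-fold below wild type (log2 differences -0.08 and -0.34). The p in the authors' deposited table was 0.849 in the DCC mutant and 0.3997 in the 8rex deletion. Of the well-expressed autosomal loci, 40.8% had a lower difference in the DCC mutant and 7.6% in the 8rex deletion, against 45.88% and 16.53% of all autosomal loci averaging 1 FPKM or more.

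The related sirtuin genes sir-2.2 and sir-2.3 lie on X and share a locus, which had 35.0 FPKM in the DCC mutant, 21.2 in the 8rex deletion and 18.8 in wild type (p = 0.129 in the DCC mutant and 0.74995 in the 8rex deletion in the authors' deposited table). Of 11 listed sirtuin and NAD genes 6 were measured apart from other coding genes; 1 was at least 1.5-fold higher in the DCC mutant and 1 lower in the 8rex deletion, with medians of 0.13 and -0.15. Both calls are nmat-1, an X-linked gene of NAD synthesis, with 11.6 FPKM in the DCC mutant, 2.71 in the 8rex deletion and 4.68 in wild type. Its p in the authors' deposited table was 0.179 in the DCC mutant, and it was not tested by them in the 8rex deletion. The X-linked gene ftt-2, whose 14-3-3 protein binds SIR-2.1, had 1831 FPKM in the DCC mutant, 1299 in the 8rex deletion and 1342 in wild type.

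The steroid receptor gene daf-12 had the largest difference of the 10 genes in the DCC mutant. It encodes the nuclear receptor of dafachronic acids (WBGene00000908, X, 10635908 to 10666875, plus strand, with 10 coding transcripts in the annotation) and had 22.6 FPKM in the DCC mutant, 14.5 in the 8rex deletion and 11.1 in wild type. Both mutants were above wild type, the DCC mutant by 2.04-fold (log2 difference 0.97) and the 8rex deletion by 1.30-fold (0.36). Neither passed the authors' test (p = 0.0552 in the DCC mutant and 0.407 in the 8rex deletion in the authors' deposited table). The DCC mutant level was 1.56-fold that of the 8rex deletion.

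Among the 1070 well-expressed X-linked loci, daf-12 ranked high in both comparisons. In the DCC mutant 47% of them were at least 1.5-fold higher and 1.5% lower; 91.5% lay below daf-12 and 90 loci above it. In the 8rex deletion 2.06% were at least 1.5-fold higher and 3.08% lower; 95.0% lay below daf-12 and 52 loci above it. Among all 2939 X-linked loci averaging 1 FPKM or more, 83.2% lay below daf-12 in the DCC mutant and 77.1% in the 8rex deletion. The shared wild-type value of 11.1 FPKM enters both ranks. The early-embryo markers were higher in the same DCC mutant pool, and their part in the daf-12 difference was not tested.

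**Figure D3:**
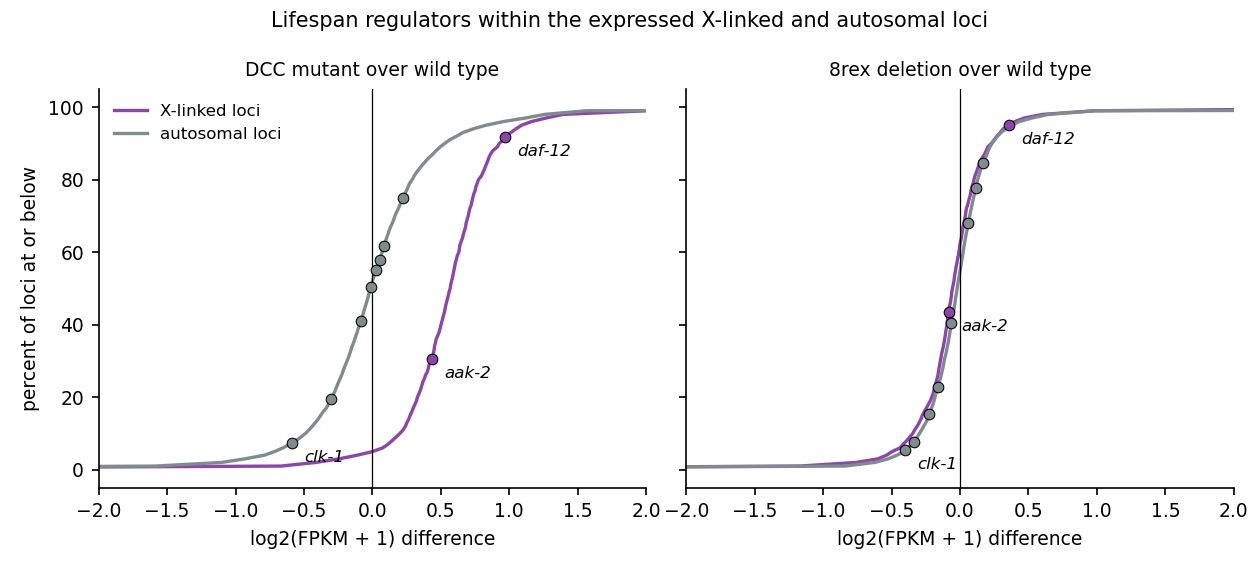
Cumulative share of X-linked loci (purple line) and autosomal loci (grey line) with 1 protein-coding gene averaging 10 FPKM or more against their log2(FPKM + 1) difference from wild type, for the DCC mutant (left) and the 8rex deletion (right), with the 10 genes as points on the line of their chromosome class; tails beyond the axis are not drawn. The X-linked line has a median of 0.57 in the DCC mutant and -0.06 in the 8rex deletion; in the DCC mutant aak-2 lies at 30.5% and daf-12 at 91.5% of it, and clk-1 at 7.3% of the autosomal line.

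Loci around both X-linked genes were mostly higher in the DCC mutant too. All 10 measured loci within 5 places of daf-12 lay above wild type in the DCC mutant (median 0.54, from 0.28 to 1.08), and 2 of 10 did in the 8rex deletion (median -0.13). The kinase gene abl-1, for example, had 94.3 FPKM in the DCC mutant, 65.2 in the 8rex deletion and 59.6 in wild type. The syndecan gene sdn-1 had 458 FPKM in the DCC mutant, 315 in the 8rex deletion and 324 in wild type. Around aak-2, 9 of 10 lay above wild type in the DCC mutant (median 0.40) and 5 of 10 in the 8rex deletion (median -0.07). The difference of daf-12 in the 8rex deletion, 0.36, exceeded that of its neighbours other than phf-31 (0.52). Around the 8 autosomal genes the neighbours' median in the DCC mutant lay between -0.21 for rsks-1 and 0.04 for clk-1.

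**Figure D4:**
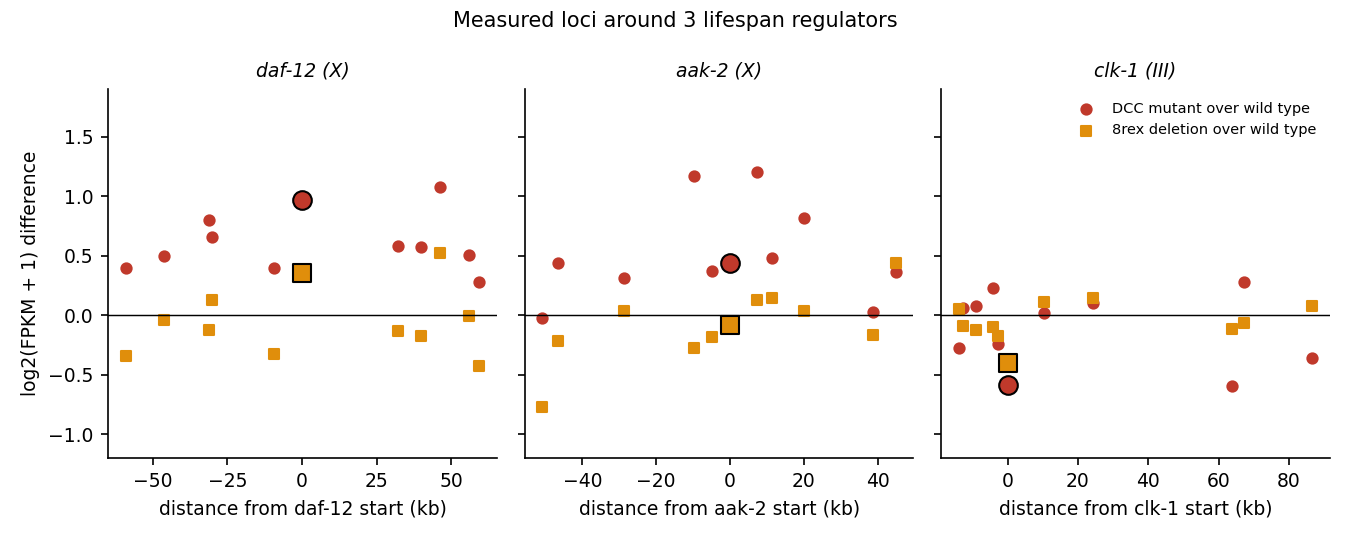
Difference from wild type as log2(FPKM + 1) of 5 measured loci on each side of daf-12, aak-2 and clk-1 against the distance of their annotated starts in kb, for the DCC mutant (red circles) and the 8rex deletion (orange squares); the named gene is the large outlined symbol. Red circles lie above 0 at 10 of 10 neighbours of daf-12 and 9 of 10 of aak-2, while clk-1 lies below 0 in both mutants among neighbours with medians of 0.04 in the DCC mutant and -0.08 in the 8rex deletion.

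Genes that make the ligand of DAF-12 had unequal levels. The cytochrome P450 gene daf-9, of the last step, had 0.186 FPKM in the DCC mutant, 0.163 in the 8rex deletion and 0.126 in wild type, under the minimum used for the lists. The oxygenase gene daf-36, of the first step, had 2.55 FPKM in the DCC mutant, 2.28 in the 8rex deletion and 2.84 in wild type. The dehydrogenase gene dhs-16, of the same synthesis, was well above both, with 18.3 FPKM in the DCC mutant, 26.6 in the 8rex deletion and 23.99 in wild type. The corepressor gene din-1 was abundant, with 131 FPKM in the DCC mutant, 156 in the 8rex deletion and 149 in wild type. Of 12 listed genes 7 were measured; 1 was at least 1.5-fold higher in the DCC mutant, none lower, and none reached 1.5-fold in the 8rex deletion. The medians were -0.18 in the DCC mutant and 0.07 in the 8rex deletion. The higher gene was ncr-1 on X, a homologue of the human Niemann-Pick C cholesterol transporter, with 14.9 FPKM in the DCC mutant, 7.98 in the 8rex deletion and 7.64 in wild type (DCC mutant p = 0.062 in the authors' deposited table). The other 6, all autosomal, lay below wild type in the DCC mutant. Among them was the nuclear receptor gene nhr-8, with 19.1 FPKM in the DCC mutant, 28.8 in the 8rex deletion and 25.9 in wild type. Of autosomal loci with 1 protein-coding gene, 45.1% lay above wild type in the DCC mutant. Of the X-linked ones 46.3% were at least 1.5-fold higher there.

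The transcription factor genes hsf-1, pha-4 and hlh-30 stayed within 1.5-fold of wild type in both mutants. The heat-shock factor gene hsf-1 (WBGene00002004, I, 11953507 to 11963085, minus strand) had 51.6 FPKM in the DCC mutant, 49.7 in the 8rex deletion and 44.0 in wild type. It was 1.17-fold higher in the DCC mutant and 1.13-fold higher in the 8rex deletion (p = 0.565 and 0.616 in the authors' deposited table). Of 16 listed partners and heat-shock genes 10 were measured. Set against wild type, 9 of them lay lower in the DCC mutant and 2 were at least 1.5-fold lower, with a median of -0.20. All 10 are autosomal. Among autosomal loci with 1 protein-coding gene, 45.1% lay above wild type there, with a median of -0.05. Of those loci 15.8% were at least 1.5-fold lower, so 2 of 10 is near that share. In the 8rex deletion 6 of the 10 genes lay above and 4 below, none by 1.5-fold, with a median of 0.01 (-0.01 with FPKM rescaled to equal sums).

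The lower heat-shock genes in the DCC mutant were hsp-70 and ddl-2. The stress-inducible chaperone gene hsp-70 had 21.6 FPKM in the DCC mutant, 32.3 in the 8rex deletion and 34.2 in wild type (DCC mutant p = 0.438 in the authors' deposited table). The gene ddl-2, whose product restrains HSF-1, had 11.5 FPKM in the DCC mutant, 17.7 in the 8rex deletion and 19.1 in wild type (DCC mutant p = 0.151 in the authors' deposited table). The constitutive chaperone gene hsp-1 was nearly level, with 554 FPKM in the DCC mutant, 569 in the 8rex deletion and 561 in wild type. The chaperonin subunit gene cct-1 was the only measured one above wild type in the DCC mutant, with 166 FPKM in the DCC mutant, 145 in the 8rex deletion and 149 in wild type.

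The FoxA gene pha-4, which specifies the pharynx in the embryo (WBGene00004013, V, 20753052 to 20760317, plus strand), had 94.3 FPKM in the DCC mutant, 99.6 in the 8rex deletion and 116 in wild type. Wild type was the highest of these values, 1.17-fold over the 8rex deletion (p = 0.4501 in the DCC mutant and 0.525 in the 8rex deletion in the authors' deposited table). The log2 differences were -0.30 in the DCC mutant and -0.22 in the 8rex deletion. Of 13 listed partners and pharynx genes 10 were measured, in the DCC mutant 2 of them at least 1.5-fold higher and 1 lower, and none was in the 8rex deletion, with medians of 0.20 and 0.10. Both higher ones lie on X. The pharyngeal myosin gene myo-2, which is also on the late-embryo marker list, had 93.1 FPKM in the DCC mutant, 42.8 in the 8rex deletion and 36.2 in wild type (DCC mutant p = 0.0015 in the authors' deposited table). The pharynx factor gene peb-1, in a locus with T14F9.7, had 116 FPKM in the DCC mutant, 61.5 in the 8rex deletion and 59.7 in wild type (DCC mutant p = 0.0269 in the authors' deposited table).

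On the autosomes 4 genes of this list lay above and 4 below wild type in the DCC mutant. Those above were the superoxide dismutase genes sod-1 (0.39), sod-2 (0.43) and sod-4 (0.38), whose enzymes break down superoxide, and pax-1 (0.02). Those below were smk-1 (-0.65), ceh-22 (-0.46), pha-1 (-0.38) and tbx-2 (-0.27). The pharynx factor gene ceh-22, a direct target of PHA-4, had 27.8 FPKM in the DCC mutant, 32.1 in the 8rex deletion and 38.7 in wild type (DCC mutant p = 0.4203 in the authors' deposited table). Its values ranked in the same order as those of pha-4, and a link between them was not tested. No other measured gene of the list was highest in wild type. The genes smk-1, pha-1, tbx-2 and pax-1 were highest in the 8rex deletion, and the rest in the DCC mutant. The gene smk-1, whose product PHA-4 needs in dietary restriction, was at least 1.5-fold lower in the DCC mutant. Its locus, which also lists F41E6.18, had 120.2 FPKM in the DCC mutant, 232 in the 8rex deletion and 189 in wild type (DCC mutant p = 0.361 in the authors' deposited table).

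The gene of the TFEB homologue, hlh-30, was the most even of the 10. This gene (WBGene00020930, IV, 4014793 to 4034951, minus strand, with 13 coding transcripts in the annotation) had 95.2 FPKM in the DCC mutant, 100.3 in the 8rex deletion and 96.0 in wild type. The values spanned 1.05-fold (p = 0.987 in the DCC mutant and 0.923 in the 8rex deletion in the authors' deposited table). Of 37 listed partners, autophagy and lysosome genes 27 were measured. The DCC mutant had 2 of them at least 1.5-fold higher and 5 lower, with a median of -0.01 (0.03 when centred on the autosomal median). Of all loci with 1 protein-coding gene 17.4% were higher and 13.9% lower there, so 5 lower of 27 is near that share. In the 8rex deletion none of the 27 was higher and 1 was lower, with a median of -0.09, where 7.93% and 6.49% of such loci were.

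Single genes of autophagy and the lysosome differed in direction. The X-linked lysosomal membrane protein gene lmp-1 had 463 FPKM in the DCC mutant, 262 in the 8rex deletion and 258 in wild type (DCC mutant p = 0.02295 in the authors' deposited table). The Atg8 homologue gene lgg-1 was nearly level, with 1145 FPKM in the DCC mutant, 1070.3 in the 8rex deletion and 1151 in wild type. The conjugation enzyme gene atg-10 had 8.37 FPKM in the DCC mutant, 1.82 in the 8rex deletion and 3.08 in wild type. Among the lower ones was the Myc-like factor gene mml-1, with 36.5 FPKM in the DCC mutant, 58.8 in the 8rex deletion and 61.5 in wild type (DCC mutant p = 0.724 in the authors' deposited table). The lysosomal lipase gene lipl-5, near the minimum, had 1.15 FPKM in the DCC mutant, 2.0996 in the 8rex deletion and 2.75 in wild type.

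Over all 11 lists, 110 of 165 genes were measured at a locus with no other coding gene. Another 44 shared a locus with a coding gene, 7 were under the minimum, 2 have a symbol that names more than 1 gene, and 2 were not matched by symbol. On X, 11 of 21 measured genes were at least 1.5-fold higher in the DCC mutant and 1 lower (52.4% and 4.76%), against 46.3% and 4.31% of all X-linked loci with 1 protein-coding gene. On the autosomes 3 of 89 were higher and 11 lower (3.37% and 12.4%), against 11.7% and 15.8% of such loci. Well-expressed loci had 47% higher and 1.5% lower on X, and 8.63% higher and 7.36% lower on the autosomes. On the autosomes, whether the lists exceed the background for lower genes thus depends on the level required of the loci. The X-linked lower gene was mxl-3, a gene of a rival of HLH-30, with 36.3 FPKM in the DCC mutant, 54.5 in the 8rex deletion and 55.3 in wild type. This call lies at the margin, with a log2 difference of -0.594 where 1.5-fold is 0.585 (DCC mutant p = 0.263 in the authors' deposited table). By the authors' p in their deposited table, 4 X-linked genes were higher at under 0.05 (myo-2, peb-1, lmp-1 and pdk-1) and 1 autosomal locus lower (sinh-1), where 4.22% of tested X-linked and 0.742% of tested autosomal loci with 1 protein-coding gene were. In the 8rex deletion none of the 110 was 1.5-fold higher and 4 were lower (3.64%), against 7.93% and 6.49% of all loci with 1 protein-coding gene. Well-expressed loci had smaller shares there, with 2.48% higher and 2.41% lower on the autosomes, and 2.06% and 3.08% on X. The 4 lower list genes in the 8rex deletion were coq-2, nmat-1, atg-3 and sinh-1. By the ratio of FPKM, with no pseudocount, 6 were lower there, the others being nmrk-1 (1.57-fold) and atg-10 (1.69-fold), and 13 in place of 12 were lower in the DCC mutant, with atfs-1.

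**Figure D5:**
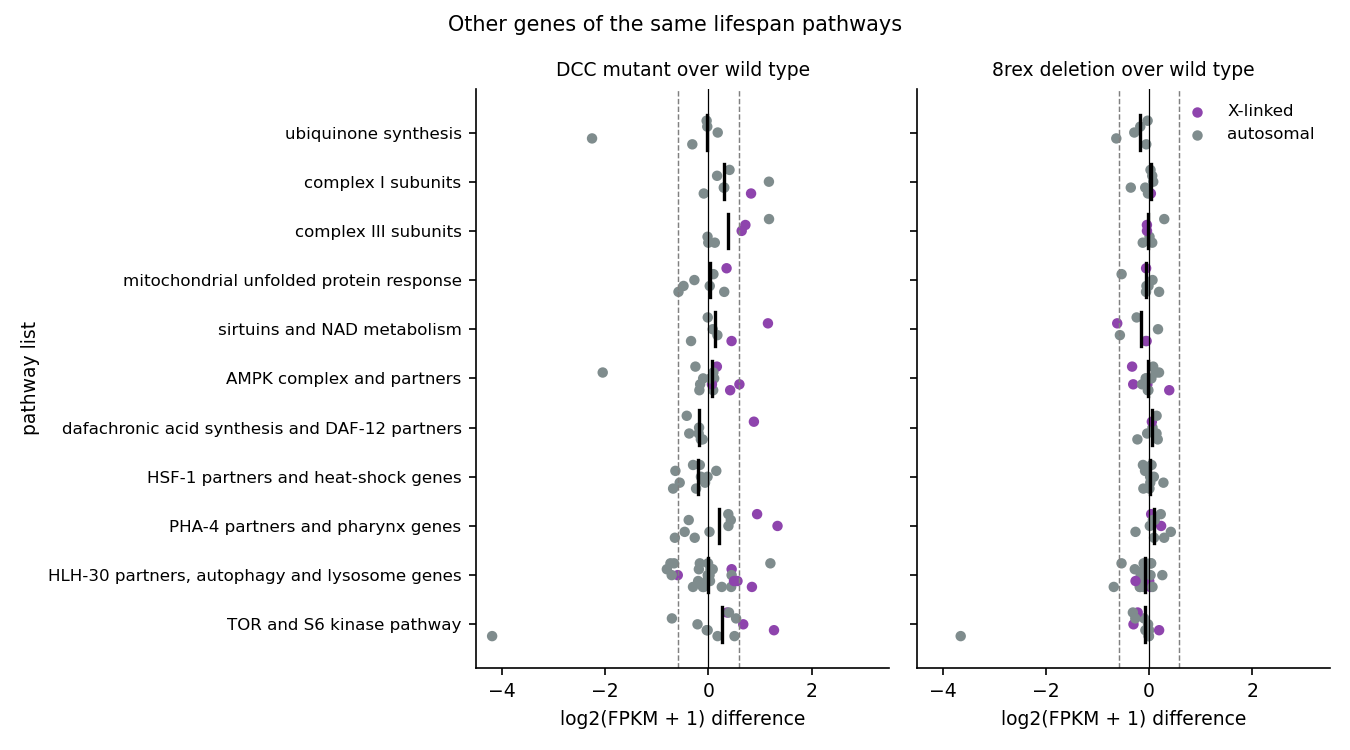
Difference from wild type as log2(FPKM + 1) of each measured gene of the 11 pathway lists, for the DCC mutant (left) and the 8rex deletion (right); purple points are X-linked and grey points autosomal genes, black ticks the list medians, and dashed lines mark 1.5-fold. In the DCC mutant 11 of 21 purple points lie past the right dashed line; in the 8rex deletion none of the 110 points does, and the point far to the left in both panels is the sinh-1 locus.

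Coding genes on the other strand overlap 3 of the 10 genes at their ends: cutl-6 overlaps nuo-6 by 14 bases, ugt-59 overlaps sir-2.1 by 22 bases and mec-4 overlaps aak-2 by 78 bases. The overlapping genes were low. The cuticle gene cutl-6 had 6.29 FPKM in the DCC mutant, 11.3 in the 8rex deletion and 9.05 in wild type. The glycosyltransferase gene ugt-59 had 7.84 FPKM in the DCC mutant, 9.51 in the 8rex deletion and 12.03 in wild type. The touch channel gene mec-4 had 5.05 FPKM in the DCC mutant, 1.87 in the 8rex deletion and 1.63 in wild type. Whether reads were counted by strand is not stated, so reads in these overlaps could belong to either gene. Annotated non-coding genes overlap daf-12 (4, of which 1 on the same strand), hlh-30 (2, of which 1 on the same strand), aak-2 (1) and pha-4 (1), and reads from them could enter those values too.

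Profiles over the genotypes were compared by the distance between log2(FPKM + 1) values, as a description without a test. The nearest of 13954 other single-gene loci to daf-12 were memb-2 on V (distance 0.11) and rfl-1 on III (0.13), and 23 loci lay within 0.25. The SNARE gene memb-2 had 21.8 FPKM in the DCC mutant, 15.2 in the 8rex deletion and 11.7 in wild type. The nearest to clk-1 were F53F10.1 (distance 0.08) and Y95D11A.1 (0.09), both on I, and 24 loci lay within 0.25. Of these, F53F10.1 had 28.5 FPKM in the DCC mutant, 30.3 in the 8rex deletion and 41.2 in wild type.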

How the data were processed

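The authors deposited 1 FPKM value per locus and genotype, per the file headers, so replicates had been combined. They also deposited a log2 fold change, p-value and q-value for each mutant against wild type; a p of 1 was taken as not tested. Per the submitters' processing notes, cutadapt 1.2.1, TopHat2 2.1.1, Cufflinks 2.2.1 and the build ce11 were used. The sources used here do not state library scaling, replicate weights or strand.

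With no replicate columns, no test was run. Differences are log2(FPKM + 1), mutant minus wild type, which understates low genes. The 242 rows without a gene identifier were left out. Symbols and 1-based coordinates came from Ensembl release 115 of the same assembly. The deposited start, shared with other rows for 8 of the 10 genes, was not used. For daf-12 it is 10644409, inside the annotated gene, which starts at 10635908. For hlh-30 it lies 25691 bases before the annotated interval, with 5 coding genes of the same strand between. The exact span that each value covers is therefore not known. An exact 0 can be a failed estimate: 218 loci in the DCC mutant, 83 in the 8rex deletion and 106 in wild type were at 0 while the other genotypes had 10 FPKM or more. List genes needed a locus with 1 protein-coding gene and an average of 1 FPKM. The symbols hsp-16.1 and hsp-16.48 each name more than 1 near-identical gene and were not counted, a choice made after seeing the data. Members and lists were chosen with earlier results of these data known. Named list genes are the 2 highest and 2 lowest differences per list in the DCC mutant and any at an authors' p under 0.05; other list genes, paralogs and neighbours were named after their values were seen. Calculations (pandas 2.3.3 and numpy 2.4.6 under Python 3.11.15; plots with matplotlib 3.10.9) were tested on simulated data.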

Additional observations from a re-analysis of the deposited data

How the results depend on the processing

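No paired analysis was possible because the table holds 1 pooled value per genotype; for the same reason no replicate could be left out. Of 100 recomputed differences of the 10 genes none moved by over 1.5-fold, and 1 changed sign (hlh-30 in the DCC mutant, 0.03 when centred on the autosomal median). The number of lower members in the DCC mutant was 0 with a pseudocount of 5 FPKM, when centred on the autosomal median and at a threshold of 2-fold, against 1 as reported. The number of higher members there was 0 at 2-fold on the log2(FPKM + 1) scale, where daf-12 has 0.97 although its FPKM ratio is 2.04, and 2 at the lowest threshold tried, where the 8rex deletion had 1 higher and 2 lower. Pathway genes lower with a pseudocount of 5 FPKM were 7 in the DCC mutant and 2 in the 8rex deletion, since that constant shrinks low genes; with no filter 1 was higher in the 8rex deletion, as more genes then enter. Medians of the lists moved by less than 1.5-fold under the alternatives run. Adding loci shared with another coding gene, an alternative chosen after seeing the data, lowered 3 medians in the DCC mutant most: complex I to 0.06 from 0.31, complex III to 0.12 from 0.38 and TOR to 0.04 from 0.27. For complex III the added locus was that of rpl-20 and the cytochrome c gene cyc-2.1. Of 352 recomputed counts of single lists 25 moved by over 1.5 times, each by 1 to 3 genes.

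Counts over all loci depend on the settings more. In the DCC mutant 2753 loci were higher and 2876 lower. Higher loci numbered 1336 at 2-fold, 4383 at the lowest threshold and 1368 when averaging 10 FPKM or more, a filter added after seeing the data. Lower loci numbered 1761 with a pseudocount of 5 FPKM, 1888 at 2-fold, 1491 when averaging 5 FPKM or more and 942 when averaging 10 FPKM or more. In the 8rex deletion 2115 were higher and 1682 lower. Higher loci numbered 1025 when averaging 5 FPKM or more and 619 when averaging 10. Lower loci numbered 1099 with a pseudocount of 5 FPKM and also at 2-fold, 2818 at the lowest threshold, 908 when averaging 5 FPKM or more and 546 when averaging 10. Unknown depth and unequal embryo stage limit all values.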
